A study of Cricetiscus sungorus with 24 samples.

Results

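The genes described are the cadherins, claudins and integrins of the hamster kidney, with the catenins, zonula occludens proteins and a few further junction proteins. They were chosen by gene symbol: those that begin with Cdh, Cldn or Ctnna, Ctnnb and Ctnnd, those that begin with Itga or Itgb and name a subunit, the Tjp genes, and Ocln, Jup, Epcam, F11r, Dsp, Cgn and Marveld2. The tables held 44 of these genes among 9681 in experiment 1 and 72 among 15842 in experiment 2, and all 44 were among the 72. Experiment 1 compared kidneys of adult male Siberian hamsters kept in a long photoperiod with 16 h of light and 8 h of dark (LP, n = 4) with males kept in a short photoperiod of 8 h of light and 16 h of dark for 12 weeks (SP12wk, n = 4) or 28 weeks (SP28wk, n = 4). Experiment 2 compared adult females that had all spent 8 weeks in the short photoperiod and then received vehicle (SAL, n = 6) or 18 µg of prolactin (PRL, n = 6) daily for 3 days. No genotype is given for either experiment. Each library came from 1 animal and from bulk kidney tissue. The paper describes cutting frozen kidneys across and keeping 1 part for molecular work. Males and females were sequenced on separate flow cells, so the experiments are not compared with each other.

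Epithelial cells of the renal tubule are held together by several kinds of junction. In adherens junctions a cadherin of one cell binds a cadherin of the next, and its tail is tied to actin by catenins. In tight junctions claudins and occludin seal the space between cells, and the claudin that a segment carries sets which ions pass beside the cells: claudin 2 and one form of claudin 10 are known from the proximal tubule, claudins 16 and 19 from the thick ascending limb, and claudins 3, 4, 7 and 8 from the distal nephron and collecting duct. Integrins are pairs of an alpha and a beta subunit that bind cells to the basement membrane and matrix.

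Values are counts of nanopore cDNA reads on the transcript with most reads of each gene, given as CPM, the count per 1000000 counts of the library. The libraries held 15687 to 57585 counts in experiment 1 and 174053 to 756523 in experiment 2, so that 1 read was worth 17.4 to 63.7 CPM in males and 1.32 to 5.75 CPM in females. A count of 0 allows up to 3 reads, which is 52.1 to 191 CPM in males and 3.97 to 17.2 CPM in females. These limits cover counting error only. CPM is not divided by transcript length, so levels are compared between animals for the same gene and not between genes.

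The symbol pattern gathered more than tubule epithelium. In experiment 2 it took Cdh5 and Cldn5, which belong to endothelium, and Itgb2, Itgal and Itgax, subunits of leukocyte integrins that had 2, 1 and 3 reads. It also took 6 genes that are no cadherin, catenin, claudin or integrin: Itgb1bp1, Itgb3bp, Itgbl1, Ctnnbl1, Ctnnbip1 and Ctnnal1. Of 16 proximal tubule markers 14 were listed in each experiment, and their summed level was 2932 to 5438 CPM over the male libraries and 2263 to 4797 CPM over the female libraries. Endothelial markers summed to 56.1 to 233 CPM in males and 160 to 274 CPM in females, and leukocyte markers to 0 to 139 CPM and 67.2 to 174 CPM. In bulk tissue, fewer cells of a type and less RNA per cell cannot be told apart.

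LP replicates 2 and 3 stood apart from the other libraries of experiment 1. Their members summed to 4038 and 3662 CPM, against 1079 to 2657 CPM in the other 10 libraries. Ribosomal protein genes summed to 71902 and 113088 CPM in the same 2 libraries and to 133904 to 175724 CPM in the other 10. Counts over all transcripts were 3.31 and 2.90 times those with 1 transcript per gene, against 2.15 to 2.45 times elsewhere. Catenins summed to 1739 and 943 CPM against 372 to 703 CPM in the other libraries, and integrins to 729 and 888 CPM against 50.2 to 531 CPM. Claudins, at 337 and 333 CPM, lay within their range of 141 to 347 CPM. What sets these libraries apart was not tested, and log2 fold changes against LP are given with and without them where both could be fitted.

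**Figure D1:**
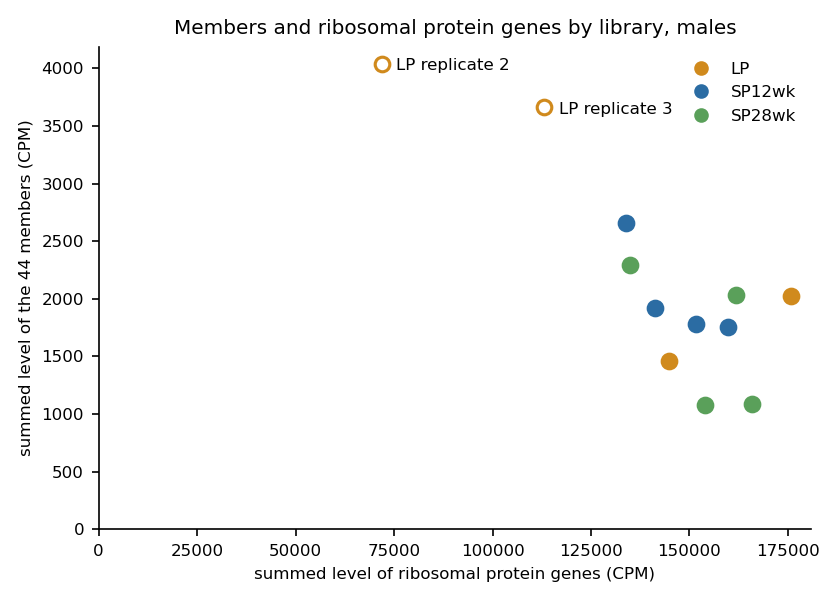
Summed level of the 44 members (y axis, CPM) against the summed level of ribosomal protein genes (x axis, CPM) in the 12 male libraries, 1 point per animal. LP replicates 2 and 3, drawn open, lie at the upper left with 4038 and 3662 CPM of members, apart from the other 10 libraries at 1079 to 2657 CPM.

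The reads of the members were held by few genes. In experiment 2 the 72 members had 6679 reads, of which 60.6% lay on Cdh16, Cldn10, Ctnnb1, Epcam, Ctnna1 and Cldn2, and 41 members had at least 10 reads. At the other end 17 members had at most 3 reads and 7 had a single read. In experiment 1 the 44 members had 656 reads in all, 64.5% on 6 genes, and 14 members had at least 10. Both experiments placed Cdh16, Ctnnb1, Ctnna1 and Cldn2 among the 6 members with most reads, beside Cldn10 and Epcam in females and Itgb1 with Epcam and Itga6, tied at 28 reads, in males. By family, the females' reads were divided into 1972 on 18 claudins, 1584 on 11 cadherins, 1140 on 6 catenins, 937 on 9 junction proteins, 734 on 22 integrins and 312 on the other genes. Cldn10 had 6 transcript entries in experiment 2, and the one with most reads, 1073, was followed by one with 547, so its values stand for 1 of its forms.

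The first comparison asks whether prolactin given in the short photoperiod, when the hormone is low, moved these genes in the female kidney. No member of the 41 tested passed an adjusted p of 0.05 in edgeR's quasi-likelihood test, and neither did any of the 10696 genes (0%). DESeq2 called no member either. The members with the smallest p were all higher in PRL and are known from epithelia: Cdh1, which encodes E-cadherin, Itgb6, the beta subunit of an epithelial integrin that binds fibronectin and activates TGF-beta, Cldn8 and Epcam. At an unadjusted p under 0.05 there were these 4 members of 41, 9.76%, beside 4.88% of all genes and 2.54% in that direction, and no member was lower beside 2.34% of genes. Cdh1 and Itgb6 passed the filter on low counts through the PRL kidneys alone, so nothing is read from this share, and the stricter filter of a count in each of 12 libraries left 24 members, of which 2 were under 0.05. With DESeq2 3 members were under 0.05, Cdh1, Itgb6 and Epcam. The median log2 fold change of the members was -0.01, beside 0.03 for all genes.

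Cdh1 was the one member whose groups did not overlap in measured CPM. It was at 0 CPM in SAL replicates 1 and 3 and at 1.9, 5.2, 6.1 and 6.4 CPM in the other SAL kidneys, and at 8.4, 9.2, 11.3, 11.5, 11.9 and 13.2 CPM in PRL. Every PRL kidney was above every SAL kidney in measured CPM, which held for 0.112% of all genes (12 of 10696, and 0.14% without overlap in either direction). The counts of 0 in SAL replicates 1 and 3 allow up to 8.11 and 13.7 CPM, and 13.7 CPM lies above all PRL kidneys. A lack of overlap is therefore not settled at this depth. The group means were 3.27 ± 3.00 CPM in SAL and 10.9 ± 1.80 CPM in PRL (SD, n = 6 each), from 7 and 26 reads. The difference of 7.65 CPM had an exact permutation p of 0.00216 over the 924 splits of the kidneys, two-sided and the smallest these groups can give, and 0.999 after adjustment over all genes. In edgeR the log2 fold change was 1.61 (SE 0.58, 95% interval 0.47 to 2.74, adjusted p = 0.639). In the 18 alternatives that tested it the unadjusted p was 0.00597 to 0.0305. These alternatives use the same few reads of a gene that passed the filter through the PRL kidneys alone. They are therefore no separate support, and the stricter filter left the gene untested.

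Itgb6 overlapped between the groups. SAL ranged from 0 to 5.64 CPM with a median of 1.35 and PRL from 3.95 to 19.9 CPM with a median of 8.79, and 1 PRL kidney lay below 2 of the SAL kidneys. The means were 2.15 ± 2.54 and 10.1 ± 5.35 CPM, from 5 and 23 reads. Its log2 fold change was 1.91 (SE 0.67, 95% interval 0.60 to 3.21, edgeR adjusted p = 0.560), and its unadjusted p was under 0.05 in all 18 alternatives that tested it. As for Cdh1, these use the same few reads, the gene passed the filter through PRL alone, and the stricter filter left it untested. Its alpha partner Itgav, which also pairs with other beta subunits, was at 31.3 ± 14.7 CPM in SAL and 34.4 ± 13.98 CPM in PRL, with a log2 fold change of -0.02 (SE 0.32).

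**Figure D2:**
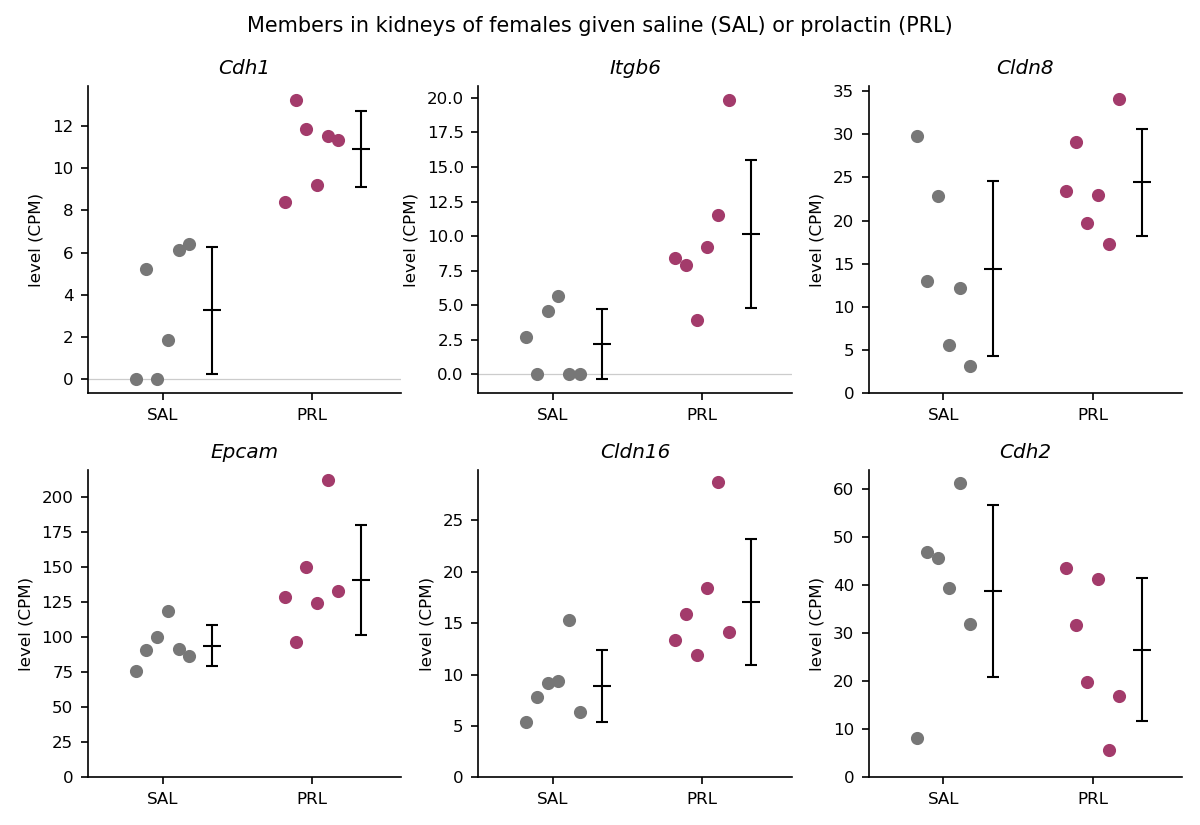
Level (y axis, CPM) of Cdh1, Itgb6, Cldn8, Epcam, Cldn16 and Cdh2 in each of 6 SAL and 6 PRL female kidneys (points), with the group mean and SD beside them. In measured CPM Cdh1 shows no overlap, with SAL at 0 to 6.4 CPM and PRL at 8.4 to 13.2 CPM, and the other 5 genes overlap. Every PRL kidney lay above every SAL kidney for 0.112% of all genes tested. The counts of 0 for Cdh1 in SAL replicates 1 and 3 allow up to 8.11 and 13.7 CPM, so this is not settled.

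Epcam, an adhesion protein of epithelia that binds claudin 7, was the best counted of the 4. It was at 75.7 to 118 CPM in SAL with a median of 91.4 and at 96.5 to 213 CPM in PRL with a median of 131. All PRL kidneys but replicate 2 were above the highest SAL kidney. The means were 94.0 ± 14.5 and 141 ± 39.2 CPM from 205 and 299 reads, the log2 fold change was 0.47 (SE 0.22, 95% interval 0.04 to 0.90, edgeR adjusted p = 0.993) and the exact permutation p of the difference in means was 0.00649 before and 0.999 after adjustment. Cldn8, a claudin of the collecting duct that forms a barrier to sodium and a path for chloride with claudin 4, was at 3.20 to 29.7 CPM in SAL and 17.2 to 34.0 CPM in PRL, with means of 14.4 ± 10.1 and 24.4 ± 6.17 CPM and a log2 fold change of 0.84 (SE 0.39, edgeR adjusted p = 0.993). The unadjusted p stayed under 0.05 in 7 of 19 alternatives for Epcam and in 9 of 19 for Cldn8. Without SAL replicate 1 the difference of Cldn8 was 13.04 CPM with an exact permutation p of 0.0152, against 9.98 CPM and 0.0671 with all kidneys. Leaving out each of the 12 libraries in turn gave an exact permutation p of 0.0152 to 0.136.

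The remaining claudins differed between SAL and PRL by less than their spread between kidneys, apart from Cldn16. Cldn16 and Cldn19 form the cation path through which the thick ascending limb reabsorbs magnesium and calcium. Cldn16 was at 5.41 to 15.3 CPM in SAL and 11.9 to 28.7 CPM in PRL, with means of 8.91 ± 3.49 and 17.1 ± 6.13 CPM, a log2 fold change of 0.78 (SE 0.42, edgeR adjusted p = 0.998) and an exact permutation p of 0.00866 before and 0.999 after adjustment. Its partner Cldn19 was at 24.4 ± 10.98 CPM in SAL and 29.7 ± 25.3 CPM in PRL, where it ran from 4.60 to 75.3 CPM. Markers of the thick limb and distal tubule had a median log2 fold change of 0.01, with 4 of 8 above 0.

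Cldn2 and Cldn10 were well counted and close between the groups. Cldn2 of the proximal tubule, which lets sodium and water pass beside the cells, was at 56.1 ± 20.6 CPM in SAL and 48.7 ± 15.8 CPM in PRL, with a log2 fold change of -0.16 (95% interval -0.69 to 0.36). The entry used for Cldn10, which was not assigned to a segment, was at 240 ± 94.8 and 231 ± 34.3 CPM, with a log2 fold change of -0.10 (95% interval -0.53 to 0.34). Its spread in SAL, from 125 to 380 CPM, was wider than in PRL, from 190 to 284 CPM, a difference in spread that was not tested. For these claudins the intervals reach no further than a change of 0.69 on the log2 scale in either direction.

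Of the claudins of the distal nephron, Cldn4 was at 24.2 ± 13.4 and 23.8 ± 5.26 CPM in SAL and PRL, and Cldn7 at 33.7 ± 11.7 and 39.2 ± 14.7 CPM. Cldn3 had 3 reads in all. Cldn1, known from the parietal cells of the glomerular capsule, was at 4.44 ± 4.86 and 3.27 ± 3.14 CPM, and the endothelial Cldn5 at 3.76 ± 3.22 and 2.37 ± 2.27 CPM. Of the 10 claudins tested 4 had a log2 fold change above 0 and 6 below, with a median of -0.05.

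Among the other cadherins, Cdh16, the kidney-specific cadherin that lines most of the tubule, had the most reads of any member. It was at 150 to 323 CPM in SAL with a median of 261 and at 206 to 360 CPM in PRL with a median of 270, and the groups overlapped over most of their range. Its log2 fold change was 0.14 (SE 0.21, 95% interval -0.28 to 0.55). Cdh6, a cadherin of the developing and mature proximal tubule, was at 13.1 ± 5.76 and 14.3 ± 11.3 CPM, and the endothelial Cdh5 at 13.5 ± 6.87 and 12.6 ± 3.54 CPM. Cdh13 had 5 reads in all and was not tested.

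Cdh2 encodes N-cadherin, which proximal tubule cells carry beside or in place of E-cadherin. It was at 8.11 to 61.2 CPM in SAL with a median of 42.6 and at 5.75 to 43.5 CPM in PRL with a median of 25.7. The lowest SAL kidney, replicate 1 at 8.11 CPM, lay below 5 of the PRL kidneys, and the other 5 SAL kidneys lay at 32.0 to 61.2 CPM. The means were 38.9 ± 17.9 and 26.5 ± 14.9 CPM from 82 and 71 reads, the log2 fold change was -0.46 (SE 0.35, 95% interval -1.14 to 0.23, edgeR adjusted p = 0.998) and the exact permutation p was 0.221. Without SAL replicate 1 the difference in means went from -12.4 to -18.5 CPM, with an exact permutation p of 0.0476. That was the smallest of the 12 values from leaving out each library in turn, which reached 0.405. In edgeR the unadjusted p was under 0.05 in 1 of 19 alternatives. The log2 fold change of Cdh2 was below 0 in all 19 alternatives. That of Cdh1 was above 0 in all 18, and neither gene passed adjustment in any of them. These alternatives reuse the same kidneys, so a constant sign is no separate support. Cdh1 also passed the filter on low counts through the PRL kidneys alone. No opposed change of these cadherins is therefore read from the signs.

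The catenins, which tie both cadherins to actin, were among the best counted members and lay close together in the groups. Ctnnb1, beta-catenin, was at 157 ± 42.0 CPM in SAL and 158 ± 27.5 CPM in PRL, with a log2 fold change of -0.08 (95% interval -0.49 to 0.34). Ctnna1, alpha-catenin, was at 73.2 ± 11.1 and 79.8 ± 16.1 CPM, with a log2 fold change of 0.04 (95% interval -0.40 to 0.49). Ctnnd1, p120 catenin, which holds cadherins at the membrane, was at 18.8 ± 9.05 and 21.0 ± 6.62 CPM. Jup, plakoglobin of desmosomes and adherens junctions, was at 5.90 ± 5.86 and 7.98 ± 5.73 CPM. For the alpha and beta catenins a change of more than 0.49 on the log2 scale lies outside the intervals, in contrast to Jup, with an interval from -0.44 to 1.87.

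None of the other junction proteins tested was under an unadjusted p of 0.05 in edgeR. Tjp1, the ZO-1 scaffold that links claudins to actin, was at 25.0 ± 7.81 and 28.7 ± 8.50 CPM. Occludin (Ocln) was at 13.7 ± 7.39 and 9.42 ± 4.21 CPM, and cingulin (Cgn), a tight junction adaptor, at 7.84 ± 3.70 and 7.61 ± 1.80 CPM. F11r, the junctional adhesion molecule JAM-A, was at 45.6 ± 28.0 and 44.6 ± 14.7 CPM. Dsp, desmoplakin of desmosomes, had 4 and 9 reads and was at 2.03 ± 2.57 and 3.34 ± 1.85 CPM. Tjp3 and Marveld2, the tricellular junction protein tricellulin, had 1 and 5 reads in all and were not tested.

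Of the integrins tested 4 were above 0 and 6 below on the log2 scale, with a median of -0.10. Itgb1, the beta subunit that most matrix-binding pairs share, was at 46.6 ± 11.2 CPM in SAL and 54.6 ± 18.1 CPM in PRL, with a log2 fold change of 0.16 (95% interval -0.36 to 0.68). Itga6, a laminin-binding subunit, was at 23.3 ± 11.6 and 13.6 ± 8.27 CPM, the integrin with the smallest p among those lower in PRL (log2 fold change -0.64, SE 0.40, edgeR adjusted p = 0.998). Itga3, the other main laminin-binding subunit of the tubule, had 3 and 10 reads and was at 1.48 ± 1.63 and 3.39 ± 3.67 CPM. Itga1, a collagen receptor subunit, was at 4.27 ± 2.80 and 2.70 ± 2.15 CPM, and Itga8, a subunit of mesangial and smooth muscle cells, at 5.76 ± 4.13 and 4.72 ± 4.29 CPM. Itgb5, a partner of Itgav, was at 18.2 ± 9.29 and 13.8 ± 9.35 CPM. Itgb4 had 9 reads, and Itgam was not among the members listed. Of the genes that only share the name, Itgb1bp1, an adaptor of integrin tails, had the smallest p of those lower in PRL, at 40.1 ± 14.3 and 30.1 ± 7.31 CPM (log2 fold change -0.50, SE 0.30, edgeR adjusted p = 0.998).

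**Figure D3:**
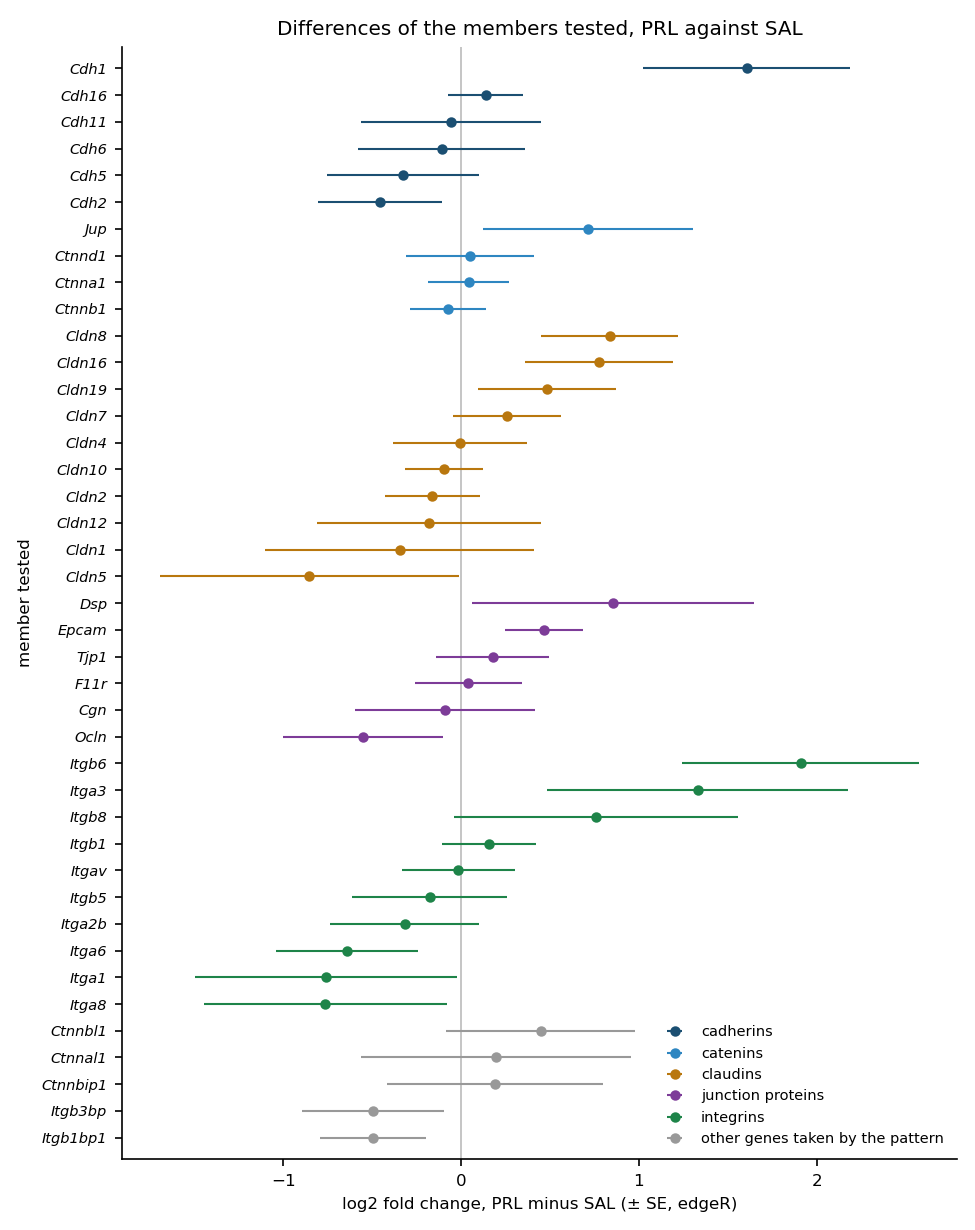
Log2 fold change of PRL minus SAL (x axis) with its standard error for the 41 members tested (y axis), coloured by family, from edgeR. Itgb6 at 1.91 and Cdh1 at 1.61 stand furthest to the right, 20 members lie above 0 and 21 below, and none passed an adjusted p of 0.05.

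Other junction and adhesion genes were read beside the members. Of 57 such genes 46 were tested, 27 above 0 and 19 below, with a median log2 fold change of 0.07, and none passed adjustment. Higher in PRL was Perp, a desmosome component, at 19.7 ± 6.33 CPM in SAL and 39.0 ± 16.1 CPM in PRL (log2 fold change 0.89, SE 0.33, edgeR adjusted p = 0.647). Lower in PRL were Nectin1, a cell adhesion protein of adherens junctions, at 16.1 ± 9.10 and 8.204 ± 4.05 CPM (log2 fold change -0.99, SE 0.47, edgeR adjusted p = 0.993), and Fermt2, an activator of integrins, at 28.5 ± 13.8 and 21.6 ± 7.67 CPM. Of 20 transcription factors and partners tested that are known for the switch between E-cadherin and N-cadherin, 11 were above 0 and 9 below, with a median of 0.04.

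Marker genes of other cell types were read beside these values. Collecting duct markers had a median log2 fold change of 0.42, with 10 of 12 above 0, and summed to 609 to 936 CPM in SAL and 712 to 898 CPM in PRL. Genes known from injured tubule had a median of 0.53, with 6 of 8 above 0. At an unadjusted p under 0.05 3 of them were higher and 1 was lower, beside 2.54% and 2.34% of all genes. The medians of proximal tubule, endothelial and stromal markers were 0.12, 0.00 and 0.17, those of podocyte, leukocyte and blood markers -0.39, -0.26 and -0.13, and that of adipose and adrenal markers 0.50. None of these genes passed adjustment in edgeR, and the part of the collecting duct and injury markers in the values of the members was not tested.

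In the male kidneys the question was whether these genes follow the photoperiod. Of the 44 members 22 had a read in at least 4 libraries and were tested, 19 had at most 3 reads in all and 11 a single read. No member passed an adjusted p of 0.05 in edgeR for SP12wk against LP, SP28wk against SP12wk or SP28wk against LP, beside 0.0197%, 0.138% and 0.216% of the 5086 genes tested. DESeq2 called none either, and none of the 22 was under an unadjusted p of 0.05 with it in any of the 3 comparisons. In edgeR the count under 0.05 was 0 of 22 for SP12wk against LP beside 7.27% of all genes, 1 of 22 (4.55%), which was lower, for SP28wk against SP12wk beside 6.1% (1.49% lower), and 0 of 22 for SP28wk against LP beside 8.61%. No member had groups without overlap, beside 2.67%, 3.38% and 3.3% of genes. The comparisons share groups, so they are not independent of each other.

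**Figure D4:**
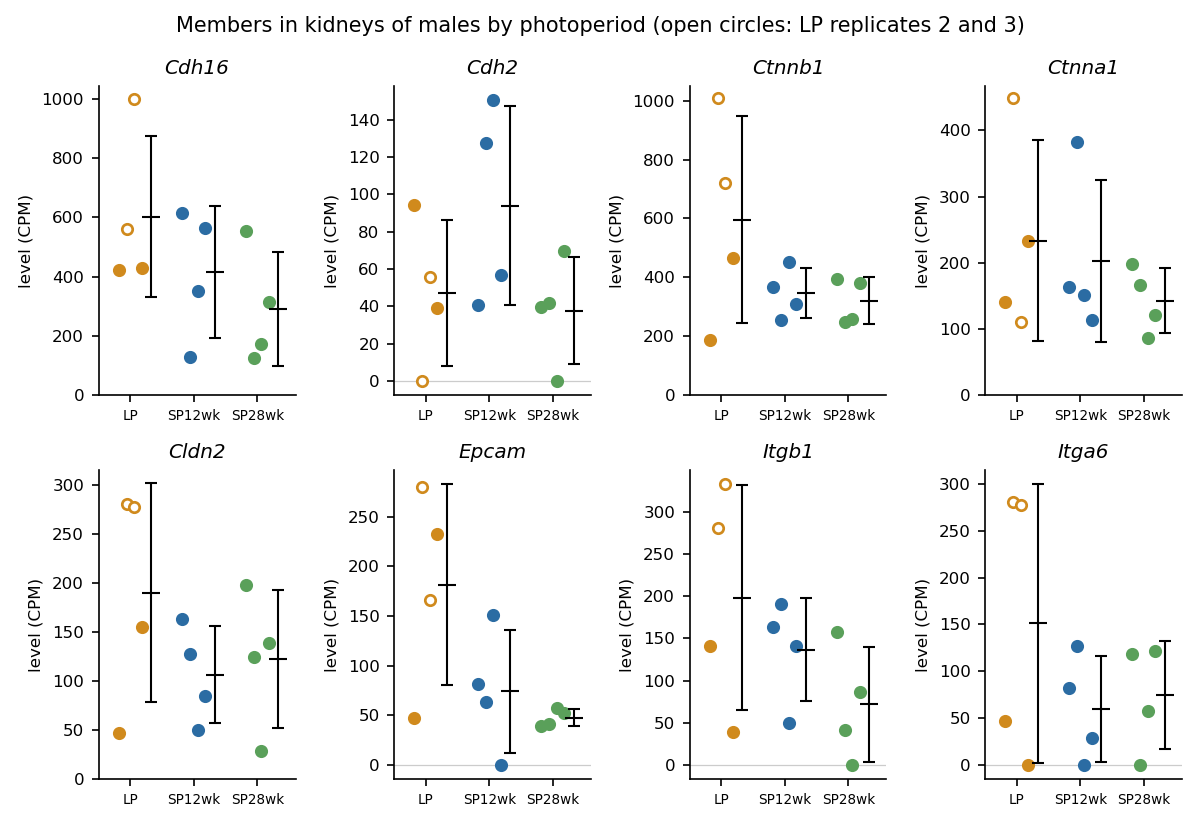
Level (y axis, CPM) of 8 members in each of 4 LP, 4 SP12wk and 4 SP28wk male kidneys (points), with the group mean and SD; open circles are LP replicates 2 and 3. The 2 open points are at or near the top of LP for Cdh16, Ctnnb1, Cldn2, Itgb1 and Itga6, and the groups overlap for each of the 8 genes.

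Cdh16 was at 423, 561, 999 and 427 CPM in LP, at 613, 127, 351 and 565 CPM in SP12wk and at 553, 124, 171 and 313 CPM in SP28wk. The kidneys of each group overlapped those of the others. The means were 603 ± 272, 414 ± 222 and 290 ± 193 CPM (SD, n = 4 each), with log2 fold changes of -0.20 (SE 0.50) for SP12wk against LP and -0.65 (SE 0.51) for SP28wk against LP. Ctnnb1 was at 188, 1010, 721 and 466 CPM in LP, whereas SP12wk lay at 255 to 452 CPM, and SP28wk at 249 to 395 CPM. Its high LP values were those of replicates 2 and 3, the other 2 LP kidneys lay on either side of both SP groups, and its log2 fold changes were -0.49 (SE 0.52) for SP12wk and -0.41 (SE 0.50) for SP28wk against LP. Without LP replicates 2 and 3 those of Ctnnb1 were 0.05 and 0.08, and those of Cdh16 0.07 and -0.43. Those of Ctnna1 were -0.05 and -0.35, against -0.10 and -0.36 with the pair. Ctnna1 was at 233 ± 153, 202 ± 122 and 143 ± 49.2 CPM in LP, SP12wk and SP28wk, and Ctnnd1 at 79.5 ± 70.7, 82.7 ± 15.03 and 27.3 ± 33.7 CPM, the lowest p among the catenins of SP28wk against SP12wk (log2 fold change -1.03, SE 0.94, edgeR adjusted p = 0.980).

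Epcam had the smallest p of the members that were lower in SP than in LP, in both comparisons with LP. It was at 47.0, 280, 166 and 233 CPM in LP, at 81.7, 63.7, 151 and 0 CPM in SP12wk and at 39.5, 41.5, 57.1 and 52.1 CPM in SP28wk. LP replicate 1 lay among the SP28wk kidneys, and the other 3 LP kidneys lay above every SP kidney. The log2 fold changes were -1.21 (SE 0.78, edgeR adjusted p = 0.670) for SP12wk and -1.41 (SE 0.75, edgeR adjusted p = 0.620) for SP28wk against LP. Without LP replicates 2 and 3 they were -1.14 and -1.37, and they were below 0 in all 20 alternatives of each comparison. Itgb6, with 4, 1 and 1 reads in LP, SP12wk and SP28wk, and Itga6, at 151 ± 149, 59.4 ± 56.7 and 74.3 ± 57.8 CPM, followed Epcam by p in SP12wk against LP. Itgb6 was below the filter without the pair. For Itga6 the difference rested on LP replicates 2 and 3 at 280 and 277 CPM: LP replicates 1 and 4 were at 47.0 and 0 CPM, and without the former pair the log2 fold change went from -1.06 to 1.16, and that of SP28wk against LP from -0.30 to 1.87.

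Cdh2 was at 94.1, 0, 55.5 and 38.8 CPM in LP, at 40.9, 127, 151 and 56.5 CPM in SP12wk and at 39.5, 41.5, 0 and 69.5 CPM in SP28wk. The reads behind these groups were 4, 8 and 6. The highest values were those of SP12wk replicates 2 and 3, and the groups overlapped. The means were 47.1 ± 39.0, 93.9 ± 53.4 and 37.6 ± 28.6 CPM. SP12wk was higher than LP by 0.94 on the log2 scale (SE 0.99, 95% interval -0.995 to 2.87, edgeR adjusted p = 0.834) and SP28wk was lower than SP12wk (log2 fold change -0.81, SE 0.91, edgeR adjusted p = 0.980). The sign of the first held in all 20 alternatives, whereas SP28wk against LP, at 0.13 (SE 1.00), turned below 0 in 6 of 20, including without scaling of the libraries. Without LP replicates 2 and 3 the values against LP were 0.39 for SP12wk and -0.45 for SP28wk. The exact permutation p was 0.171 for SP12wk against LP, where 4 kidneys against 4 cannot give less than 0.0286. Cdh1 had 1, 1 and 2 reads in LP, SP12wk and SP28wk.

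Cdh6 gave the one unadjusted p under 0.05 among the members in males. It had a read in LP replicate 3, 1 read each in SP12wk replicates 1, 2 and 3, and none in SP28wk. With 3 reads against none, both groups lay within the limit that a count of 0 allows, and no fold change is given. The edgeR p was 0.0299, adjusted 0.740, while the exact permutation p was 0.143, and neither DESeq2 nor a sum over the transcripts of the gene put it under 0.05.

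The claudins of the males had 87 reads. Cldn2 was at 47.0, 280, 277 and 155 CPM in LP, 163, 127, 50.2 and 84.8 CPM in SP12wk and 198, 124, 28.6 and 139 CPM in SP28wk, with LP replicates 2 and 3 the highest of the 12. Its log2 fold changes against LP were -0.55 (SE 0.71) for SP12wk and -0.21 (SE 0.65) for SP28wk, and 0.00 and 0.30 without these 2 libraries. Cldn10 was at 37.4 ± 46.0, 56.5 ± 45.3 and 55.0 ± 50.5 CPM and Cldn4 at 23.7 ± 28.3, 56.7 ± 46.5 and 26.2 ± 18.2 CPM. Cldn4 had the smallest p of the claudins higher in SP12wk than in LP (6 against 2 reads, log2 fold change 1.37, SE 1.17, 95% interval -0.91 to 3.66, edgeR adjusted p = 0.802), and Cldn10 of those higher in SP28wk than in LP (10 against 3 reads, log2 fold change 1.13, SE 1.00, 95% interval -0.83 to 3.10, edgeR adjusted p = 0.852). Without LP replicates 2 and 3 these were 1.38 for Cldn4 and 0.73 for Cldn10. Cldn16, Cldn7, Cldn1 and Cldn5 had 2, 4, 1 and 1 reads, and Cldn8 and Cldn3 were not among the members listed.

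Among the matrix receptors and scaffolds, Itgb1 was at 141, 280, 333 and 38.8 CPM in LP, at 163, 191, 50.2 and 141 CPM in SP12wk and at 158, 41.5, 0 and 86.8 CPM in SP28wk. LP replicates 2 and 3 were above every SP kidney and LP replicate 4 below most, and the log2 fold change of SP28wk against LP went from -0.96 (SE 0.71, edgeR adjusted p = 0.805) to -0.14 without the former pair. Itgav was at 77.3 ± 39.8, 53.7 ± 52.9 and 43.2 ± 32.8 CPM and Tjp1 at 99.0 ± 93.1, 65.2 ± 96.5 and 69.97 ± 53.5 CPM. Without the pair the log2 fold changes of SP12wk and SP28wk against LP were 0.29 and 0.11 for Itgav (-0.24 and -0.37 with it) and -0.20 and -0.02 for Tjp1 (-0.19 and 0.03 with it). Cdh11, a cadherin of mesenchyme with 3, 1 and 6 reads, and Itga2b, a platelet integrin subunit with 1, 1 and 3 reads, had the smallest p of members higher in SP28wk than in SP12wk, beside Itga6 (log2 fold change 0.75, SE 0.85, edgeR adjusted p = 0.980). Ocln, with 1, 3 and 1 reads, was second by p to Cdh6 among those lower. Ctnnbl1, a splicing-associated protein that shares only the name, had no read in LP and 2 in each SP group and led the members higher in both SP groups than in LP.

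**Figure D5:**
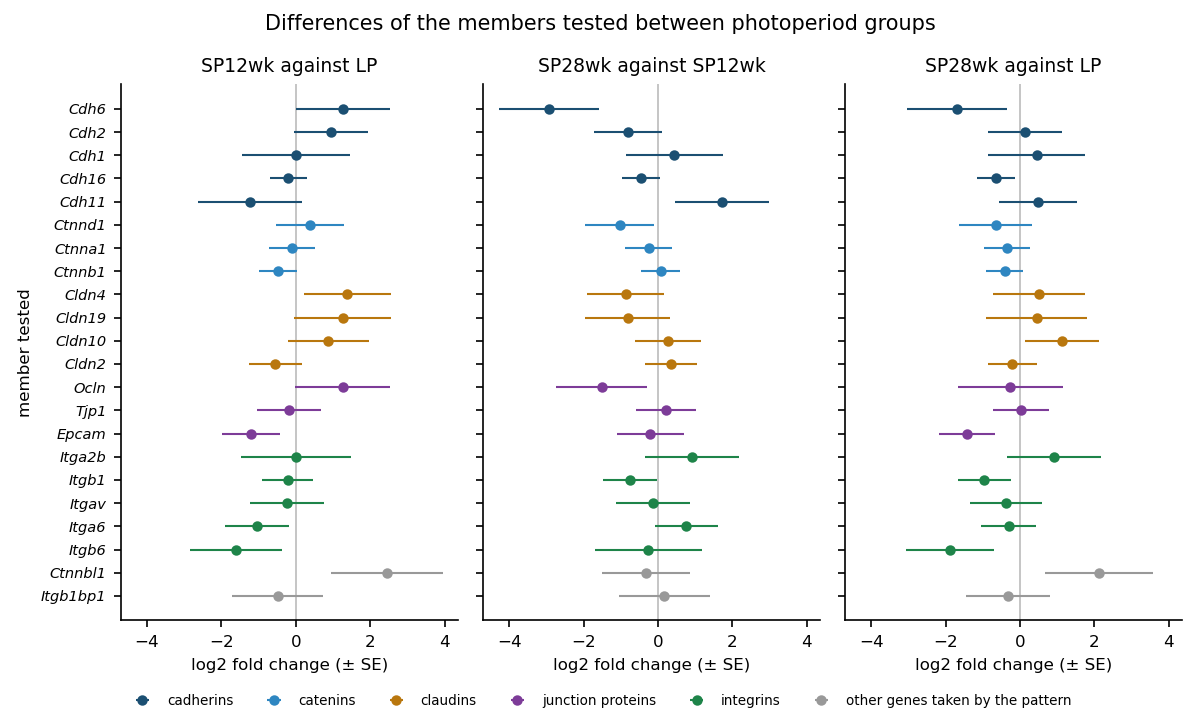
Log2 fold change (x axis) with its standard error for the 22 members tested (y axis) in SP12wk against LP, SP28wk against SP12wk and SP28wk against LP, coloured by family, from edgeR. Members of a few reads have the widest errors, and none of the 22 passed an adjusted p of 0.05.

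Taken over the 22 members, the median log2 fold change was -0.15 for SP12wk against LP, -0.23 for SP28wk against SP12wk and -0.28 for SP28wk against LP, beside 0.00, 0.16 and 0.18 for all genes. Without scaling of the libraries the medians of all genes were -0.17, 0.01 and -0.16, so the members are read against them: their median lay below that of all genes by 0.149, 0.382 and 0.462 with scaling and by 0.183, 0.384 and 0.472 without. Without LP replicates 2 and 3 it lay above that of all genes by 0.284 for SP12wk against LP and below it by 0.348 and 0.071 for the others. The difference in SP12wk against LP also turned above 0 without SP12wk replicate 3 (0.079) or SP12wk replicate 4 (0.026) and was 0 with no filter on low counts, which put SP28wk against LP at 0.138. The direction of the members as a group against LP was therefore not stable.

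Of the 57 other junction and adhesion genes 29 were tested in males, and none passed adjustment in the 3 comparisons. Dst, which encodes the cytolinker dystonin of hemidesmosomes, had 17, 1 and 9 reads over LP, SP12wk and SP28wk. It was at 77.7 to 393 CPM in LP and 0 to 28.3 CPM in SP12wk (log2 fold change -3.59, SE 1.05, edgeR adjusted p = 0.263), and at 1.54 to 86.8 CPM in SP28wk. LP and SP12wk did not overlap in measured CPM, beside 2.67% of all genes tested. In the SP12wk libraries a count of 0 allows up to 84.8 to 191 CPM, above the lowest LP kidney. A lack of overlap is therefore not settled for Dst. Without LP replicates 2 and 3 the log2 fold change of SP12wk against LP was -2.57, with an edgeR adjusted p of 0.863, and that of SP28wk against LP went from -1.30 to -0.31. The others that led by p had few reads: Ptk2, the focal adhesion kinase, had 4 in SP12wk, 2 in SP28wk and none in LP, Mpp5, a polarity scaffold, 2, 4 and none, Pcdh1, a protocadherin, none in SP12wk and 4 in LP, Vcl, vinculin of actin-bound junctions, 4 in SP28wk and none in SP12wk, Nectin1 1 and 3, and Pkp4, a plakophilin, 4, 9 and 11 in SP28wk, SP12wk and LP. Of these 29 genes 3, 0 and 1 had an unadjusted p under 0.05 in SP12wk against LP, SP28wk against SP12wk, and SP28wk against LP. The shares over all genes tested were 7.27%, 6.1% and 8.61%, and nothing is read from counts this small. The median of the genes known for the cadherin switch was -0.43, 0.97 and 0.47 over 12 genes in the 3 comparisons, beside 0.00, 0.16 and 0.18 for all genes. None of the 12 passed adjustment in edgeR. The 1 under an unadjusted edgeR p of 0.05 was lower in SP28wk than in SP12wk, beside 1.49% of all genes in that direction.

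Marker genes of the males gave few counts. Proximal tubule markers had medians of 0.27, 0.03 and 0.53 over 10 genes for SP12wk against LP, SP28wk against SP12wk and SP28wk against LP, and summed to 2991 to 5438, 2932 to 3815 and 2964 to 3473 CPM over the kidneys of LP, SP12wk and SP28wk. Those of the thick limb and distal tubule had 0.01, -0.01 and 0.10 over 5, of the collecting duct 1.00, -0.26 and 0.28 over 3, of podocytes 0.44, 0.05 and 0.49 over 4, of endothelium -0.38, 0.82 and 0.30 over 6, of stroma -0.47, 0.12 and 0.25 over 8 and of blood 0.61, -0.02 and 0.59 over 4. Injury genes, of which 2 were tested, had -1.25, 0.12 and -1.13, and summed to 617 and 943 CPM in LP replicates 2 and 3 against 141 to 311 CPM elsewhere. Of the leukocyte and of the adipose and adrenal markers 1 each was tested. Their part in the values of the members was not tested.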

How the data were processed

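Kidney polyA RNA of 24 hamsters was sequenced as barcoded nanopore cDNA. The authors deposited estimated counts for each mouse RefSeq transcript and library in one table per experiment, and the submitters' processing notes name minimap2 and Salmon. No genome or sequence table was used here, so no sequence is shown. The tables list 36662 transcripts of 9681 genes in experiment 1 and 71590 transcripts of 15842 genes in experiment 2, and hamster reads were assigned to mouse transcripts, so a gene far from its mouse copy could be undercounted, which was not tested.

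For each gene the transcript with the highest total was kept, and CPM is its estimated count per 1000000 of the library's total over these transcripts. For tests the counts were rounded to whole numbers. Genes with at least 1 count in at least 4 of 12 libraries (experiment 1) or 6 of 12 (experiment 2) were tested with edgeR 4.0.16 (quasi-likelihood test, TMM scaling, R 4.3.3), with all groups of an experiment in one fit and Benjamini-Hochberg adjustment over all genes tested. For single genes the difference in mean CPM was also tested by an exact two-sided permutation test of the libraries of both groups. DESeq2 1.42.0, other scalings and filters, sums over transcripts, a replicate block and leaving out libraries were tried as alternatives. Transcripts of a gene often carried the same counts, such as 10 of 11 for Tjp1 in experiment 1. A sum over transcripts may therefore count a read more than once, which was not tested, and its results are weaker checks than the others. The scripts were tested on simulated data. Intervals are normal 95% intervals from the standard error, n counts libraries, and p-values measure the spread between these samples.

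The members and lists were chosen with earlier results of these data known. Named were members fixed by role, for each comparison the 3 that led by p among those higher and among those lower, the 6 with most reads and, of the junction and adhesion genes, the 2 that led by p on either side. Items withheld from the text are not reported here. The lists held junction and adhesion genes, genes of the cadherin switch, and markers of collecting duct, proximal tubule, podocytes, thick limb with distal tubule, endothelium, leukocytes, blood, stroma, adipose and adrenal tissue and tubule injury.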

Additional observations from a re-analysis of the deposited data

Results flagged for a closer look

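A library was set apart where the gap between the highest or lowest kidney and the next exceeded the share of the group's range given by Dixon's 95% critical value. Of 101 groups of values examined 4 did so, where chance gives about 1 in 20. Cldn2, the claudin of the proximal tubule, was at 95.9 CPM in SAL replicate 3 against 38.4 to 56.8 CPM in the other SAL kidneys. Cldn19 of the thick ascending limb was at 45.9 CPM in SAL replicate 1 against 16.0 to 23.4 CPM in the others. The junction proteins summed to 260 CPM in SAL replicate 3 against 157 to 196 CPM in the other SAL kidneys. The integrins summed to 230 CPM in PRL replicate 5, the shallowest library, against 152 to 174 CPM in the other PRL kidneys.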

How the results depend on the processing

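No member passed adjustment in any comparison under any alternative. Of 517 alternative log2 fold changes of 28 values, those of Cdh2 and of the members that led by p, 509 kept their sign, and the lowest adjusted p in edgeR was 0.302, for Itgb6 in PRL against SAL. Over all 107 values of the members tested 1858 of 2001 kept their sign. Those that turned include Cdh16 in SP12wk against LP (-0.48 to 0.08) and Cldn2 (-0.60 to 0.30) and Itga6 (-0.84 to 1.87) in SP28wk against LP. These 3 had 133, 42 and 28 reads over the 12 male libraries. Among the 28 the sign turned for Cdh6 in SP12wk against LP with counts summed over transcripts (-0.88) and for Itga6 in SP12wk against LP without LP replicates 2 and 3 (1.16), an alternative chosen after seeing the data. For Cdh2 in SP28wk against LP it turned with summed transcripts (-0.37), library totals without scaling (-0.21), DESeq2 (-0.15) and without LP replicates 2 and 3 (-0.45), and leaving out 1 library gave -0.64 (without SP28wk replicate 4) to 0.62, with -0.31 without LP replicate 2.

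Counts of members at an unadjusted p under 0.05 were small and moved. In SP28wk against SP12wk the 1 lower member, Cdh6, became 0 with summed transcripts, DESeq2, the stricter filter, the replicate block and without LP replicates 2 and 3, and leaving out 1 library gave 0 to 1 lower (0 without LP replicate 3, SP12wk replicate 1, 2 or 3, or SP28wk replicate 4) and 0 to 1 higher (Cdh11, without SP12wk replicate 1). In SP28wk against LP there was 1 higher and 1 lower with summed transcripts, 2 lower without scaling, 1 lower with the stricter filter and 0 to 1 lower when leaving out 1 library (1 without LP replicate 1 or SP28wk replicate 1). In PRL against SAL 2 were higher with summed transcripts and 2 with the stricter filter, which drops Cdh1 and Itgb6, and leaving out 1 library gave 2 to 4 higher (2 without SAL replicate 2 or 6 or PRL replicate 1 or 6) and 0 to 2 lower (2 without SAL replicate 1, 1 without PRL replicate 1 or 6). The difference of Cdh2 in mean CPM ran from -18.5 (without SAL replicate 1) to -7.89 and that of Cldn8 from 7.74 to 13.04 (without SAL replicate 1). The causes were not tested.

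Over all genes 1 call in SP12wk against LP became 0 to 8. The 7 in SP28wk against SP12wk became 0 with summed transcripts, 2 with DESeq2 or the stricter filter, 18 without LP replicates 2 and 3 and 2 to 11 without 1 library. The 11 in SP28wk against LP became 0, 2 (DESeq2, and without LP replicates 2 and 3), 5 and 8 to 54. The 0 in PRL against SAL became 1 with summed transcripts, 92 without a filter, 94 with the replicate block and 0 to 44 without 1 library. Same-numbered libraries showed little common deviation on average (mean correlation 0.018 in experiment 1 and 0.026 in experiment 2, from -0.145 to 0.195). With 12 and 6 such pairs this check cannot exclude that the numbers pair the samples. With the block 0 members were called in each comparison. At 1 read to 17.4 CPM or more, the male libraries limit all members but a few.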
